A study of Homo sapiens with 6 samples.

Results

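The BCL2 family of apoptosis regulators was followed in SK-OV3, an established line of human ovarian carcinoma cells, after transfection with siRNA against the long non-coding RNA PVT1. The members were the rows of the count table whose gene symbol was BCL2, BCL2L1, MCL1, BCL2A1, BCL2L11, PMAIP1, BAK1, BID, BIK or BMF. All 10 were found among the 59653 genes of the table, and all 10 were among the 19008 genes that passed the filter on low counts. The data are 3 RNA libraries from cells given a pool of siRNAs to PVT1 (siPVT1) and 3 from cells given a non-targeting pool (siControl), both made from wild-type SK-OV3 cells 48 h after transfection. The paper describes SK-OV3 as cells that do not express p53. The design holds a single cell line and a single pool against PVT1, so effects of that pool and of lowering PVT1 cannot be told apart. The labels do not say whether replicates were separate cultures, so p-values measure only the spread between these libraries.

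Proteins of the BCL2 family decide at the outer mitochondrial membrane whether a cell under stress goes on to activate its caspases. The anti-apoptotic proteins (BCL2, BCL2L1, MCL1 and BCL2A1) bind and hold back the others, the pore-forming proteins (BAK1 and its relative BAX) permeabilize the membrane and let cytochrome c out, and the BH3-only proteins (BCL2L11, PMAIP1, BID, BIK and BMF) occupy the anti-apoptotic proteins or switch on the pore formers. Ovarian carcinomas are among the tumours in which BCL2L1 and MCL1 are studied as drug targets. Counts of RNA do not show protein levels, and MCL1 and the BH3-only proteins are known to be controlled after transcription as well.

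The total count per library lay between 28383171 and 32324829 in siControl and between 29564562 and 35059576 in siPVT1. Values are given as normalized counts, which are the deposited counts divided by each library's TMM-scaled size and multiplied by the mean of those sizes. The targeted gene, PVT1, had normalized counts of 3298, 4090.5 and 3377 in siControl and 2350, 2111 and 2062 in siPVT1, or −0.72 as a log2 fold change (SE, the standard error of the fit, 0.0967, adjusted p = 0.000342 in edgeR's quasi-likelihood test), so that all 3 libraries labelled siPVT1 were below all 3 labelled siControl. The siPVT1 replicates differed more from each other than the siControl replicates did, and chi-square divided by its degrees of freedom was 8.62 to 45.3 for their pairs against 1.75 to 5.67, and siPVT1 replicate 3 stood farthest apart. The members together took 0.0840–0.0861% of all counts in siControl and 0.132–0.164% in siPVT1, and mitochondrial genes took 5.26–5.81% and 5.75–6.996%, with siPVT1 replicate 3 the lowest of its group in the first and the highest in the second. Of 10 epithelial and ovarian markers 5 were higher and 2 lower in siPVT1. The keratins KRT8 and KRT18 and the lineage factor PAX8 had 2596 to 11826 counts in every library, whereas EPCAM had 44 to 126, CDH1 had 0 to 43 and MUC16 had 19 to 677, with CDH1 at 0 in siPVT1 replicate 3. Of the markers of other cells, 5 of 7 blood genes were at 3 counts or fewer in every library, with CD3E and MS4A1 at 0. CD14 was lower in siPVT1 at 2 to 10 counts, LYZ did not pass, and the summed level of the list was 12.9–258 in siControl and 15.0–88.5 in siPVT1. The 4 endothelial genes (PECAM1, CDH5, VWF and KDR) were all higher in siPVT1, their summed normalized counts going from 2066–2110.4 to 8665–10932, mostly through CDH5. Of the 5 fibroblast genes, COL1A1 and PDGFRA were higher, LUM did not pass the test, and COL1A2 and DCN were at most 4 counts in every library (summed level 133–139 in siControl, 512–560.1 in siPVT1). The part of these shifts in the results on the BCL2 family was not tested. In bulk RNA, a change in every cell and a larger change in some of the cells cannot be told apart.

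Silencing PVT1 went with higher RNA of 6 of the 10 family genes and lower RNA of 2. BMF and MCL1 rose the most, by 5.85-fold and 2.42-fold, followed by BID, BCL2A1, PMAIP1 and BIK. BCL2 and BCL2L11 fell, and BCL2L1 and BAK1 did not pass the adjusted p of 0.05. The higher group therefore held 2 anti-apoptotic genes and 4 BH3-only genes, and the lower group held an anti-apoptotic gene and a BH3-only gene. The transcriptome as a whole moved widely in this experiment, and the counts are to be read against it: 57.9% of all tested genes passed the adjusted p, 29.5% as higher and 28.4% as lower in siPVT1. With a log2 fold change of at least 1 in size asked for as well, which is the study's second threshold, 2 members were higher (BMF and MCL1), against 11.8% of all tested genes. No member was lower past both thresholds in edgeR with TMM scaling of all 6 libraries or in DESeq2, against 9.64% of all tested genes. In all, 4081 tested genes passed both thresholds, and 3777 did with DESeq2. The paper names the same 2 thresholds and reports far fewer genes, and the reason for this difference was not tested. An unadjusted p under 0.05 as lower (edgeR) was found for 3 of the 10 members and for 5822 of the 19008 tested genes. BCL2 passed both thresholds as lower, at −1.04, in edgeR with total-count scaling and without siPVT1 replicate 2. In 9 of the 10 members the 3 siPVT1 libraries did not overlap the 3 siControl libraries, and 65.6% of all tested genes showed such a gap. The median log2 fold change of the members was 0.60, beside 0.0014 over all tested genes. The members were chosen with earlier results of these data known, and this median holds for them alone. For 9 other tested BCL2 family genes, described below, it was −0.43 (−0.57 under total-count scaling, −0.18 without siPVT1 replicate 3). Of the genes past both thresholds 55.1% were higher in siPVT1, and 43.8% when libraries were scaled by their total count, which moved the median of all tested genes to −0.15. None of the 10 members changed direction with that scaling.

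**Figure D1:**
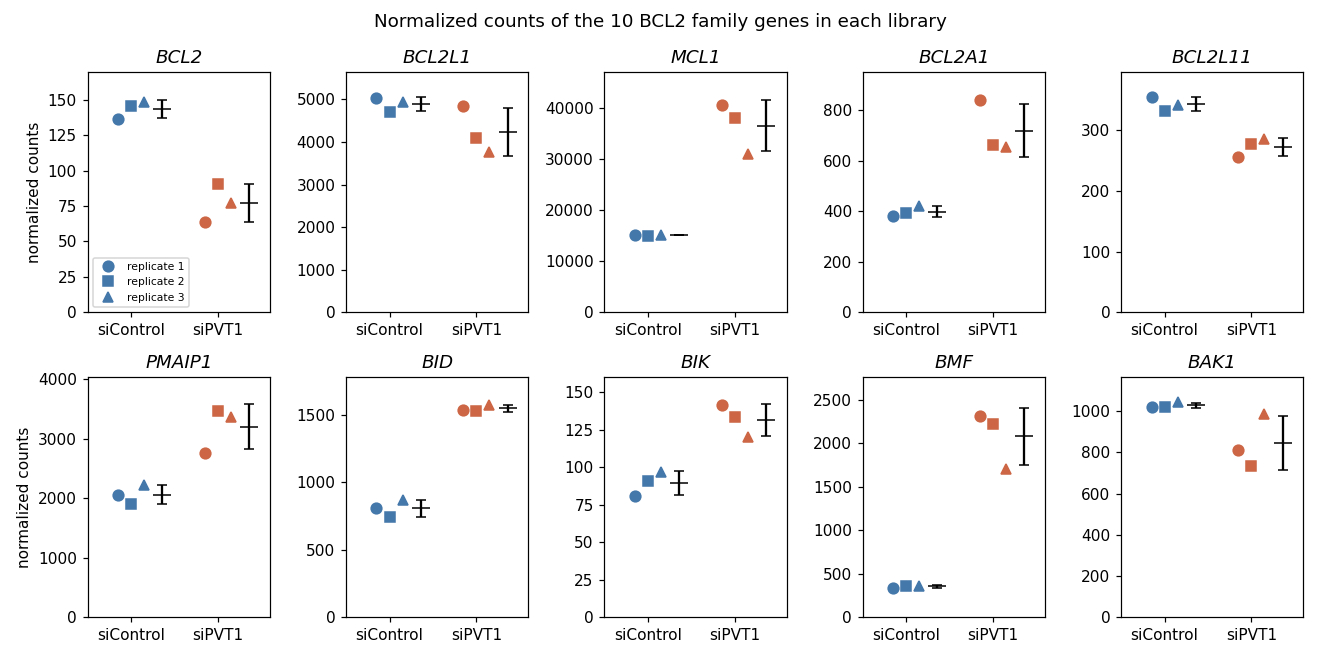
Normalized counts (vertical axes, each from 0) of the 10 family genes in the 3 siControl and 3 siPVT1 libraries, with a symbol per replicate and the mean ± SD of each group at its right. Only BCL2L1 has siPVT1 values within the range of siControl. As a ratio, BMF shows the widest gap, from 340.0–365 to 1703–2307.

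Among the anti-apoptotic genes, MCL1 (ENSG00000143384, chromosome 1 from 150560895 to 150579738, minus strand) gave the largest counts of all members. MCL1 encodes a short-lived guard against cell death on which many carcinoma cells depend. Its normalized counts were 15138, 14985 and 15129.7 in siControl and 40459, 38019 and 30947 in siPVT1, given here and below in the order of replicates 1, 2 and 3. The siControl values lay within a very narrow band (15084 ± 85.9, SD, n = 3), and even the lowest siPVT1 library was far above it (36475 ± 4940.0, SD, n = 3). The log2 fold change was 1.27 (SE 0.0966, adjusted p = 1.74e-05, Benjamini-Hochberg over edgeR quasi-likelihood tests), and it was 1.36 without siPVT1 replicate 3. Exons of MCL1 overlap those of ADAMTSL4 and ADAMTSL4-AS1, and the strand setting of the counting is not stated. ADAMTSL4 had 230.0 to 266 normalized counts in siControl and 390.9 to 735 in siPVT1, and was also higher, at 1.23 as a log2 fold change (SE 0.211, adjusted p = 0.00128, edgeR quasi-likelihood test). The part of these overlaps in the value for MCL1 was not tested.

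BCL2A1 (ENSG00000140379, chromosome 15 from 79960892 to 79971196, minus strand) encodes the anti-apoptotic protein A1, best known as a target of NF-kB in blood cells. It had 381, 395 and 421 normalized counts in siControl and 843, 664 and 653 in siPVT1. All siPVT1 libraries were higher, with replicate 1 above the other two. On the log2 scale BCL2A1 rose by 0.85 (SE 0.114, adjusted p = 0.000351, edgeR quasi-likelihood test).

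BCL2 (ENSG00000171791, chromosome 18 from 63123346 to 63320128, minus strand), the founding member of the family and the target of venetoclax, was scarce in these cells. In siControl 136, 145 and 149 normalized counts were found, and in siPVT1 63.5, 90.7 and 77.0. The siPVT1 values were all under the lowest siControl value. The log2 fold change of BCL2 was −0.89 (SE 0.153, adjusted p = 0.00128, edgeR quasi-likelihood test), short of the fold threshold. Without siPVT1 replicate 2, the highest of its group, the value was −1.04 and BCL2 passed both thresholds.

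BCL2L1 (ENSG00000171552, chromosome 20 from 31664452 to 31723989, minus strand) encodes BCL-xL and, by alternative splicing, the shorter pro-apoptotic BCL-xS, which counts per gene do not tell apart, as they do not for the isoforms of MCL1 and BCL2L11. The normalized counts of BCL2L1 were 5036, 4713 and 4947 in siControl and 4852, 4103 and 3758 in siPVT1. Replicate 1 of siPVT1 lay inside the range of siControl, and the other siPVT1 libraries lay below it. The log2 fold change of −0.21 (SE 0.0936) did not pass the test (adjusted p = 0.0870, edgeR quasi-likelihood test). Without siPVT1 replicate 1 it was −0.33 and passed (adjusted p = 0.00216). ABALON, whose exons overlap BCL2L1 on the other strand, had at most 17 counts in a library.

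Of the BH3-only genes, BMF (ENSG00000104081, chromosome 15 from 40087890 to 40108892, minus strand) showed the greatest change of the family. BMF encodes a protein that is held at the actin cytoskeleton and is linked to death after loss of attachment. For BMF the normalized counts were 340.0, 365 and 360.3 in siControl and 2307, 2223 and 1703 in siPVT1. The 2 groups lay far apart, and within siPVT1 replicate 3 was the lowest. The means were 355 ± 13.2 and 2078 ± 328 (SD, n = 3 each). This gave a log2 fold change of 2.55 (SE 0.123, adjusted p = 2.30e-06, edgeR quasi-likelihood test), and 2.66 without siPVT1 replicate 3. BMF ranked 343rd from the top among the log2 fold changes of the 19008 tested genes. BMF-AS1, the antisense gene whose exons overlap BMF, had at most 1 count in a library.

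BID (ENSG00000015475, chromosome 22 from 17734138 to 17774770, minus strand) encodes the protein that caspase-8 cuts to carry a death-receptor signal to mitochondria. Its normalized counts were 808, 748 and 868 in siControl and 1539, 1531 and 1578 in siPVT1. The siPVT1 libraries were nearly equal for BID, at 1549 ± 25.0 (SD, n = 3), although they differed for most other members. The log2 fold change was 0.94 (SE 0.0735, adjusted p = 2.07e-05, edgeR quasi-likelihood test), which is below the fold threshold.

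PMAIP1 (ENSG00000141682, chromosome 18 from 59899996 to 59904305, plus strand) encodes NOXA, which binds MCL1 in particular. The libraries held 2048, 1903 and 2218 normalized counts in siControl and 2766, 3471 and 3365 in siPVT1. All siPVT1 libraries were higher, and here replicate 1 was the lowest of them. On the log2 scale PMAIP1 rose by 0.64 (SE 0.0993, adjusted p = 0.000776, edgeR quasi-likelihood test).

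BIK (ENSG00000100290, chromosome 22 from 43110750 to 43129712, plus strand) encodes a BH3-only protein of the endoplasmic reticulum. It had 85 to 105 counts per siControl library and 122 to 128 per siPVT1 library before normalization, the fewest of the 5 BH3-only members. After normalization the values were 80.9, 90.9 and 97.0 in siControl and 141, 133 and 120.3 in siPVT1, without overlap. For BIK the log2 fold change was 0.55 (SE 0.134, adjusted p = 0.00765, edgeR quasi-likelihood test).

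BCL2L11 (ENSG00000153094, chromosome 2 from 111119378 to 111168444, plus strand) encodes BIM, a potent activator of the pore formers. Of the 5 BH3-only members it was the only one that fell. BCL2L11 had normalized counts of 355, 332 and 342 in siControl and 256, 278 and 285 in siPVT1. The groups did not overlap, and the gap was small. BCL2L11 fell, with a log2 fold change of −0.33 (SE 0.0867, adjusted p = 0.0113, edgeR quasi-likelihood test). Exons of BCL2L11 overlap those of MIR4435-2HG on the other strand, which had far more counts (2569 to 4376 in a library) and was also lower in siPVT1 (log2 fold change −0.48, standard error 0.0708). Without strand, reads of the overlap cannot be told apart, and the part of MIR4435-2HG in the value for BCL2L11 was not tested.

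BAK1 (ENSG00000030110, chromosome 6 from 33572547 to 33580293, minus strand) was the pore-forming member. Its normalized counts were 1021, 1021 and 1042 in siControl and 813, 735 and 987 in siPVT1. All siPVT1 libraries were lower, with replicate 3 close to siControl. The log2 fold change was −0.28 (SE 0.107), and at an adjusted p of 0.0508 (edgeR quasi-likelihood test) BAK1 missed the threshold narrowly. DESeq2 gave an adjusted p of 0.0286. Without siPVT1 replicate 3 the edgeR value was −0.43 with an adjusted p of 0.000242. The pseudogene BAK1P1, which can share reads with BAK1, had 6 to 15 counts per library.

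**Figure D2:**
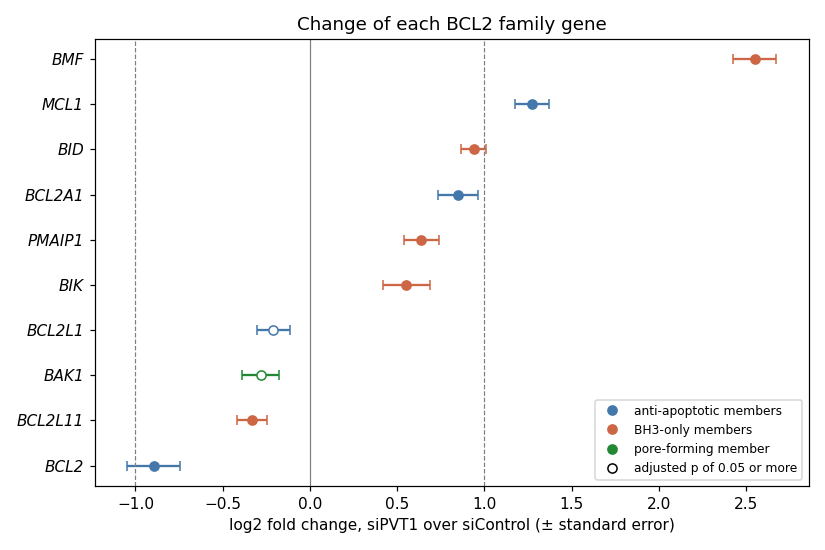
Log2 fold change of siPVT1 over siControl for each family gene (horizontal axis), with the standard error of the edgeR fit as bars, colours for the classes, and dashed lines at the fold threshold. BMF and MCL1 lie beyond the upper line at 2.55 and 1.27, BCL2 lies nearest to the lower line at −0.89, and open symbols mark BCL2L1 and BAK1, which did not pass the adjusted p.

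Levels of different genes were compared as normalized counts per kilobase of merged exons. In siControl the order from the highest was MCL1 (2424 ± 13.8), BCL2L1 (1167 ± 39.8), PMAIP1 (941 ± 72.0), BAK1 (465 ± 5.44), BCL2A1 (401 ± 20.6), BID (183 ± 13.7), BIK (94.2 ± 8.52), BMF (65.2 ± 2.42), BCL2L11 (50.9 ± 1.70) and BCL2 (11.4 ± 0.516), each a mean ± SD of 3 libraries per kilobase. No neighbours in that order overlapped. In siPVT1, PMAIP1 (1464 ± 174) stood above BCL2L1 (1010 ± 133), BCL2A1 (724 ± 107) stood above BAK1 (382 ± 58.2), and BMF (381.5 ± 60.2) had moved from the eighth place to the sixth. BAK1, BMF and BID (350.5 ± 5.66) overlapped in siPVT1, so their order there was not resolved. Part of the order depended on the length used. Per kilobase of the longest transcript, BCL2A1 (mean 493) already stood above BAK1 (465) in siControl. In siPVT1 the means on that length were 621 for BID, 443 for BMF and 382 for BAK1. BCL2L11 and BCL2 were the lowest in both groups.

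The make-up of each class, taken over its members alone, shifted in every siPVT1 library. Other genes of these classes were left out of the sums. Among them were BCL2L2 (mean 315 per kilobase in siControl and 399 in siPVT1), BAD (163 and 154) and BBC3 (134 and 100). MCL1 gave 60.4%, 61.1% and 60.1% of the summed level per kilobase of the 4 anti-apoptotic genes in siControl, and 76.4%, 78.7% and 76.2% in siPVT1. The share of BCL2L1 went from 29.2 ± 0.649% to 13.3 ± 0.611% (SD, n = 3 each), although its own level had not passed the test. The ratio of MCL1 to BCL2L1 per kilobase was 2.03, 2.15 and 2.06 in siControl and 5.63, 6.25 and 5.56 in siPVT1. BCL2A1 held a like share in both groups (10.02 ± 0.481% and 9.54 ± 0.810%). Among the 5 BH3-only genes, PMAIP1 was the most abundant per kilobase in every library, at 70.5 ± 0.812% of their sum in siControl and 61.5 ± 4.10% in siPVT1. BMF went from 4.90 ± 0.392% to 16.1 ± 2.95%, and BCL2L11 from 3.83 ± 0.244% to 1.71 ± 0.0727%. The summed levels of the members of both classes were higher in siPVT1, in normalized counts per kilobase. For the 4 anti-apoptotic members the sum went from 4004 ± 56.3 to 7602 ± 999. For the 5 BH3-only members it went from 1334 ± 89.9 to 2375 (2224, 2524 and 2377 in the 3 libraries). These shares and sums are descriptions of RNA levels and were not tested.

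**Figure D3:**
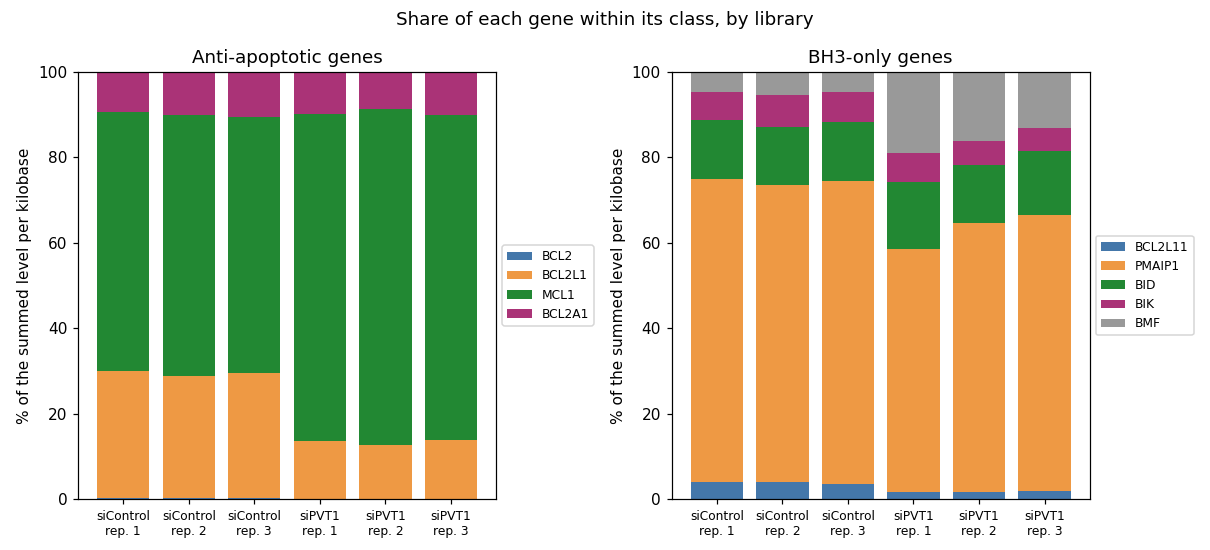
Stacked bars, 1 per library, of the share (%) of each member in the summed level per kilobase. The sums are over the 4 anti-apoptotic members (left) and the 5 BH3-only members (right), not over every gene of the class. The MCL1 share is 60.1–61.1% in siControl and 76.2–78.7% in siPVT1, and the BMF share widens from 4.63–5.35% to 13.2–19.1%.

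The sequence before the start site is shown for BMF, the gene that changed most, and for BCL2A1 and BCL2L11, which held the only matches in the family to short core motifs of ATF4 with CEBP and of FOXO factors. RefSeq windows from 250 bases before to 50 after each start were found for 8 of the 10 members, 14 windows in all, and MCL1 and BIK were not matched. The motifs searched on both strands were TGACTCA (AP-1), TGACGTCA (CREB and ATF), TGATGCAA (ATF4 with CEBP), CACGTG (E-box), GTAAACA (FOXO), GGGCGG (SP1) and a pair of NF-kB decamers. Capitals mark a match, and each stretch is written in the direction of transcription (GRCh38.p14, outside annotated exons).
BMF, chr15:40108893-40109129, minus strand: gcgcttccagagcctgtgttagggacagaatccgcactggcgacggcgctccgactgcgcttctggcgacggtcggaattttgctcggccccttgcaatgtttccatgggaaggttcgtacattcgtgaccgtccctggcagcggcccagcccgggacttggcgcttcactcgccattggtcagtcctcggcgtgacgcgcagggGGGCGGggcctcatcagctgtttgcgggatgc
BCL2A1, chr15:79971197-79971296, minus strand: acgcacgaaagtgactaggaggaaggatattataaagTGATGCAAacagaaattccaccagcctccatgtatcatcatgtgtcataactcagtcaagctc
BCL2L11, chr2:111120664-111120763, plus strand: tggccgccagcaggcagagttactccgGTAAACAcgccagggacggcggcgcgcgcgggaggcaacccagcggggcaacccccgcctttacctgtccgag

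In the BMF stretch the single match was to SP1, 45 bases before the start. BCL2A1 held TGATGCAA 63 bases before its start, a motif present in 0.866% of all 35116 promoter windows. BCL2L11 held GTAAACA 223 bases before its start, present in 3.42% of all windows, and 3 matches to GGGCGG, present in 45% of windows. The E-box lay in 2 overlapping windows of BID and in 7.26% of all windows. No window of a member held the AP-1 or CREB motif or an NF-kB decamer, present in 4.95%, 1.85%, 0.191% and 0.145% of all windows. A match describes the letters of the window and is no evidence of binding. BCL2A1 and BCL2L11 moved in opposite directions.

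Beyond the 10 members, 11 other BCL2 family genes were examined, of which 9 were tested, 1 was higher and 2 were lower. The median log2 fold change of the 9 was −0.43. It was −0.57 under total-count scaling, −0.55 without siPVT1 replicate 1 and −0.18 without siPVT1 replicate 3. BCL2L2, the anti-apoptotic BCL-w, was higher at 0.34 (SE 0.0671, adjusted p = 0.00275, edgeR quasi-likelihood test), and it shares exons with the readthrough gene BCL2L2-PABPN1, whose reads may be divided between them. BCL2L12 and BCL2L13 were lower at −0.83 and −0.48. BAX, the second pore former, had normalized counts of 3089, 2973 and 3101 in siControl and 2964, 2658 and 2574 in siPVT1, and its log2 fold change of −0.16 did not pass (adjusted p = 0.0759). BBC3, which encodes PUMA, had 446, 417 and 417 in siControl and 443, 317 and 196 in siPVT1. Its siPVT1 libraries thus ran from the level of siControl to less than its lowest value, and the log2 fold change of −0.43 did not pass (adjusted p = 0.169). BOK, BCL2L15 and the BH3-only genes HRK (−0.58) and BAD (−0.08) did not pass either. BCL2L10 and BCL2L14 had at most 8 and 2 counts in a library and were not tested.

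Downstream of the mitochondrial pore, 11 caspases and mitochondrial factors were tested, 4 of them higher and 3 lower (median 0.08). That median was −0.07 under total-count scaling, 0.05 without siControl replicate 2, 0.13 without siControl replicate 3 and 0.03 without siPVT1 replicate 3. CASP9, the caspase of the apoptosome, had normalized counts of 178, 139 and 135 in siControl and 327, 326 and 306 in siPVT1, without overlap, and on the log2 scale it rose by 1.08 (SE 0.124, adjusted p = 0.000148, edgeR quasi-likelihood test). CYCS, which encodes cytochrome c, went the other way, from 8194, 6972 and 8386 to 2725, 3806 and 5101, which was −1.02 as a log2 fold change (SE 0.199, adjusted p = 0.00262). The siPVT1 libraries of CYCS were spread widely (3877 ± 1189.7, SD, n = 3), with replicate 3 the nearest to siControl. The scaffold APAF1 was higher at 0.55 and the serine protease HTRA2 at 0.66. CASP2 was lower at −0.72 and DIABLO, which releases caspases from their inhibitors, at −0.23. CASP6, AIFM1 and ENDOG did not pass.

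Of 7 inhibitors of apoptosis 6 were tested, with 3 higher and 1 lower (median 0.21, and 0.06 under total-count scaling). BIRC3, which encodes cIAP2 and is induced through NF-kB, was higher at 0.50 (SE 0.0758), and its partner BIRC2 was lower at −0.68 (SE 0.0569). BIRC5 was higher at 0.49 and BIRC6 at 0.32. XIAP, the direct caspase inhibitor, had a log2 fold change of 0.02 (SE 0.0564), NAIP had 0.11, and neither passed, and BIRC7 had no counts. In the arm that leads from caspase-8 to BID, 2 of 6 genes were higher and 3 lower. Their median was −0.11, with −0.26 under total-count scaling, −0.23 without siPVT1 replicate 3 and −0.07 without siPVT1 replicate 1. The genes that passed were CASP10 at 0.55 and CFLAR at 0.20, against RIPK1 at −0.56, CASP8 at −0.30 and MTCH2, the mitochondrial docking protein of BID, at −0.25. FADD did not pass.

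Of 6 genes that control the breakdown of MCL1 protein, 1 was higher and 3 were lower (median −0.16, and −0.31 under total-count scaling). The ubiquitin ligase HUWE1 was higher at 0.28 (SE 0.0536), and the ligases MARCHF5 at −0.44 and BTRC at −0.24 and the deubiquitinase USP13 at −0.56 were lower. FBXW7 and USP9X did not pass. Among 13 transcription factors linked in the literature to family genes, 12 were tested, 4 were higher and 3 lower (median 0.14, with −0.01 under total-count scaling and 0.09 without siPVT1 replicate 1). FOXO1, a factor that can induce BCL2L11, had normalized counts of 632, 622 and 666 in siControl and 1795, 1670 and 1300 in siPVT1, well apart, and its log2 fold change was 1.31 (SE 0.119, adjusted p = 4.42e-05, edgeR quasi-likelihood test). STAT3 at 0.43, HIF1A at 0.26 and NFKB1 at 0.18 were also higher. DDIT3, the CHOP factor of the stress response, was lower at −1.02, MYC at −1.01 and ATF4 at −0.45. E2F1, RELA, FOXO3 and TP73 did not pass, and TP63 was not tested. Over all 6 lists, 15 genes were higher and 15 lower of 50 tested, which is near the 57.9% called among all tested genes.

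**Figure D4:**
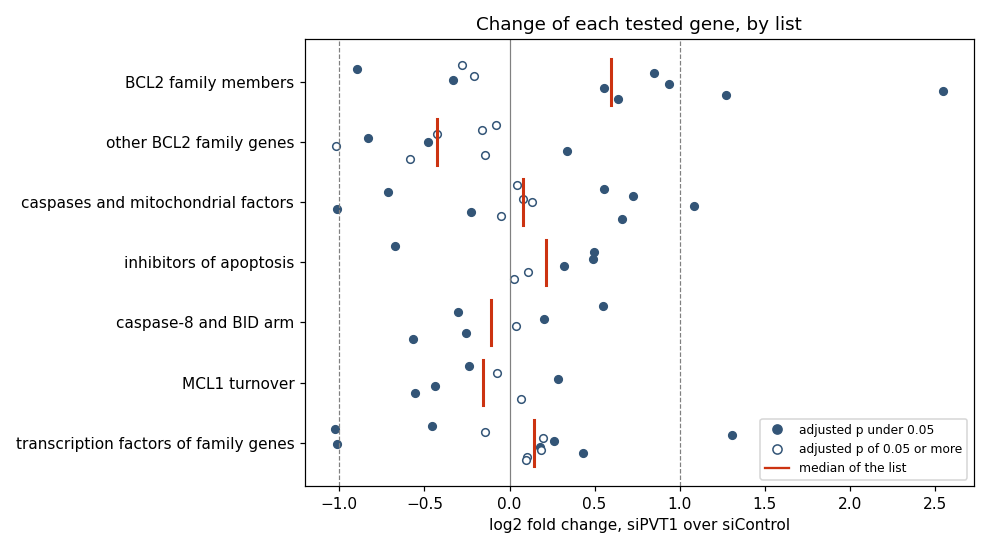
Log2 fold change of siPVT1 over siControl (horizontal axis) of each tested gene in the family and in 6 lists of related genes, with filled points for an adjusted p under 0.05, open points for the others, and a red bar at each median. The median is 0.60 for the 10 members. For the 6 lists it lies between −0.43 (−0.57 under total-count scaling, −0.18 without siPVT1 replicate 3) and 0.21 (0.06 under total-count scaling).

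The genes whose levels over the 6 libraries lay closest to those of BMF were NTN1, GAS7 and CACNA1A, at root mean square distances of 0.0439, 0.0527 and 0.0760 on the log2 CPM scale after each gene was centred on its mean. Their log2 fold changes were 2.56, 2.55 and 2.51, beside 2.55 for BMF. Closest to BCL2 were RFESD, MCM9 and RINT1, at distances of 0.0554, 0.0675 and 0.0736 and with log2 fold changes of −0.88, −0.80 and −0.93. With 2 groups of 3 libraries, closeness mainly says that a gene changed by the same amount.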

How the data were processed

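The members and gene lists were chosen with earlier results of these data known. The authors aligned single-end reads of mRNA libraries to GENCODE transcripts (build GRCh38.p13) using STAR, and quantified them with Salmon. The deposited values are estimated counts, already whole numbers, one row to a gene symbol and not normalized. The submitters' processing notes give STAR 2.7.3a and Salmon 0.14.1. The strand setting is not given in the sources used here. From these counts, used as they stand, the quasi-likelihood test of edgeR 4.0.16 in R 4.3.3 was fitted with TMM factors and the siRNA as the only term. A gene was tested if 3 or more libraries reached 5 normalized counts, and p-values were adjusted by Benjamini-Hochberg over all 19008 of them. Thresholds were 0.05 for the adjusted p and 1 for the size of the log2 fold change. Each SE is that size divided by the square root of F. Named genes are the 10 members, PVT1, genes of the written lists and, for the member highest and the member lowest in log2 fold change, the 3 nearest genes by distance of centred log2 CPM (prior count 2). Genes overlapping a member were named after their values were seen. Positions and lengths came from GENCODE v44, promoter windows from RefSeq (GRCh38.p14). Scripts were tested on simulated data. DESeq2 1.42.0, other scalings and filters, the replicate block and single libraries left out were tried as alternatives. Replicates differed by more than sampling noise. No protein sequences were used here. Some genes of the lists are counted but not reported by name here.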

Additional observations from a re-analysis of the deposited data

How the results depend on the processing

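Over 12 alternatives (DESeq2, DESeq2 size factors or total-count scaling in edgeR, no filter, filterByExpr, the replicate block, and each of 6 libraries left out), the log2 fold changes of the 10 members gave 120 values, of which 111 kept direction and side of the threshold, 9 newly passed it and 0 reversed. The 9 were BAK1 under 7 settings and BCL2L1 under 2. BAK1 passed with DESeq2 (adjusted p = 0.0286), DESeq2 size factors (0.0392), total-count scaling (0.00764), no filter (0.0379), filterByExpr (0.0489), the replicate block (0.0411) and without siPVT1 replicate 3, and its adjusted p reached 0.136 without siPVT1 replicate 2. The 6 members higher and the 2 higher past both thresholds kept these numbers in all of them, and the edgeR test against a 2-fold change also gave 2. Total-count scaling shifted the median of all tested genes to −0.15, so changes are relative to that scale. With it 4 members in place of 2 were lower, 1 in place of 0 was lower past both thresholds (BCL2), 9 genes of the 6 pathway lists in place of 15 were higher, the median of caspases and mitochondrial factors turned to −0.073 and that of transcription factors to −0.0077, and 43.8% in place of 55.1% of the genes past both thresholds were higher. The cause was not tested. With 1 library left out, 0 to 1 members were lower past both thresholds (1 without siPVT1 replicate 2). The test against a 2-fold change gave 1976 genes in place of 4081, and 1184 in place of 2248 as higher, by construction. With the longest transcript as length, MCL1 held 62.2% of the anti-apoptotic sum in siControl. PVT1 stayed between −0.88 and −0.62 with every adjusted p under 0.05. Replicate numbers showed no sign of pairing the libraries over all tested genes, though these values cannot show that the libraries were unpaired. Deviations of same-numbered libraries correlated at −0.041, 0.038 and 0.0037. With the replicate block 8 of 8 members that passed still passed, with 3924 genes past both thresholds. BIK and BCL2 had the fewest counts of the members.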
